A study of Homo sapiens with 4 samples.

Results

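The regions described are the anti-GFP ChIP-seq peaks on chromosome 21 whose end lies below position 13000000 of the human genome build hg38. This stretch holds the short arm, with the ribosomal RNA (rRNA) gene repeats, and sequence around the centromere. All peaks on it are called short arm peaks here. Of the 104156 peaks in 4 lists, 886 met the rule. They were measured in MDA-MB-231 cells, a line from a human breast cancer, that carried Smad2 or Smad3 with a LAP tag on a bacterial artificial chromosome. GFP is part of the tag, the tagged gene adds to the Smads that the cells make themselves, and Geneticin was in the medium of every condition. The cells were left untreated or were given 10 ng/mL TGFβ-1 for 2 h, which makes 4 conditions with 1 library each. No difference between conditions therefore has a replicate check, and no test between conditions was possible. In the 2 untreated libraries, the Smad in the sample label is not the Smad in the name of the deposited list. They are called "the untreated library labelled LAP-Smad2" and "the untreated library labelled LAP-Smad3", no direction of a treatment effect is drawn from them, and which Smad each holds was not tested with the short arm peaks. The lists hold no read totals and sequencing depth is unknown.

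Ribosomal RNA genes are arranged in tandem repeats on the short arms of the acrocentric chromosomes and form the nucleolus. RNA polymerase I transcribes each repeat into a 45S precursor, which is cut into the 18S RNA of the small ribosomal subunit and the 5.8S and 28S RNAs of the large subunit. The precursor also holds an external transcribed spacer at each end (5′ and 3′ ETS) and internal transcribed spacers (ITS1 and ITS2), and a long intergenic spacer separates one gene from the next. Smad2 and Smad3 are the receptor-regulated Smads of the TGFβ pathway, which enter the nucleus after receptor activation and regulate genes that RNA polymerase II transcribes. In hg38 the chromosome 21 short arm holds 4 copies of the repeat, named here by their RefSeq genes: RNA45SN2, a copy at the pseudogene RNA18SP5 that stops at a gap in the 28S part, RNA45SN3 and RNA45SN1. GENCODE release 44 annotates 4 genes of type rRNA there, and all 4 are 5.8S genes: RNA5-8SN2 at chr21:8212572-8212724, a gene named 5_8S_rRNA at chr21:8256781-8256933, RNA5-8SN3 at chr21:8395607-8395759 and RNA5-8SN1 at chr21:8439823-8439975, each on the plus strand. The other 3 copies were 96.6%, 98.5% and 98.1% identical to RNA45SN3 in the aligned sequence. A read from one copy can therefore align to another copy, and peaks of different copies are not independent of each other.

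The sequences below, read from hg38 on the plus strand, are those of the leading repeat peaks of the untreated library labelled LAP-Smad2 and of the TGFβ-1-treated LAP-Smad3 library, chr21:8434064-8434214 and chr21:8398698-8398848, each 151 bases on the summit. They are shown because the highest −log10 q of the 2 lists falls on them. Capitals mark GGCGC, a GC-rich Smad element, and CAGAC, the Smad-binding element, on either strand. CAGAC was found in neither of them.
5′ ETS of RNA45SN1: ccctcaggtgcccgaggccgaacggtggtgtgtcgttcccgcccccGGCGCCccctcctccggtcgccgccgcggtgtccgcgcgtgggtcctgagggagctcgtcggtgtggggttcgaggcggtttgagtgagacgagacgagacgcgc
28S of RNA45SN3: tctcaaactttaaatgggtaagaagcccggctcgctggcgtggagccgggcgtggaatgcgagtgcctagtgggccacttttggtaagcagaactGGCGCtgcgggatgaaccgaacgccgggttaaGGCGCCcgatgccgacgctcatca
The 5′ ETS sequence differed by 1 base from each of the other 3 copies, and the 28S sequence had 0 differing bases in each of them.

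Outside the repeats, a 45S fragment described below held the leading peak of the untreated library labelled LAP-Smad2 and of the TGFβ-1-treated LAP-Smad3 library. Of the other leading sequences there, 2 are shown for comparison: chr21:10692801-10692951 and chr21:8807057-8807207. The former is the leading peak of the TGFβ-1-treated LAP-Smad2 library, and the latter, with the 45S fragment described below set aside, of the TGFβ-1-treated LAP-Smad3 library. Capitals mark CATTC on either strand, the unit of human satellites 2 and 3, in the former sequence and GGCGC in the latter.
Satellite peak: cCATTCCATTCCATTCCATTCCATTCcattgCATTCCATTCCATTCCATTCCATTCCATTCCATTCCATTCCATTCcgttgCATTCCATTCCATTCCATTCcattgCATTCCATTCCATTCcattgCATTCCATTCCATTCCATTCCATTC
Peak in ENSG00000286033: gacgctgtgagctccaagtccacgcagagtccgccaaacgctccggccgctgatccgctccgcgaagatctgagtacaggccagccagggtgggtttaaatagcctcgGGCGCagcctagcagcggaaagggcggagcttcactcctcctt
The satellite peak held 26 matches to CATTC, and the sequence in the lncRNA gene ENSG00000286033 held 0.

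The untreated library labelled LAP-Smad2 had its 4 peaks with the highest −log10 q of the whole genome in the rRNA repeat. The paper names no input or control library, and the number of repeats in these cells was not measured, so that this ranking is not a ranking of Smad binding. Fold enrichment, the authors' ratio of read pileup at the summit to local background, was within the repeat highest in the 5′ ETS, the part of the precursor that is transcribed first and removed in processing. A peak with its summit 917 to 919 bases after the 45S start was called in each of the 4 copies. Its fold enrichment was 16.2 in RNA45SN2, 15.7 in the copy at RNA18SP5, 15.0 in RNA45SN3 and 13.8 in RNA45SN1, with −log10 q of 219, 213, 206 and 225. Outside the short arm the highest −log10 q of that list was 121. The TGFβ-1-treated LAP-Smad3 list had a peak at the same place in each copy, 918 to 925 bases after the start, with fold enrichment of 7.03, 6.86, 6.92 and 6.65. The other 2 lists had no summit between 800 and 1100 bases after the start, but the untreated library labelled LAP-Smad3 had 1 at 798, with fold enrichment of 1.63. In each of the 4 copies, the peak of the untreated library labelled LAP-Smad2 overlapped peaks of all 3 other lists.

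The core of the polymerase I promoter lies at the 45S start, and the stretch upstream of it is part of the region that controls transcription of the repeat. Within 150 bases of the start, the untreated library labelled LAP-Smad2 had a summit in all 4 copies, 24 to 42 bases upstream, with fold enrichment of 8.81, 9.02, 9.32 and 8.33 in the order of copies above. The TGFβ-1-treated LAP-Smad3 list also had a summit there in all 4, 43 to 46 bases upstream, with fold enrichment of 4.66, 4.95, 5.36 and 4.28. Further upstream, between 1100 and 600 bases before the start, all 4 lists had summits. There the fold enrichment was 9.51 to 10.6 in 4 copies in the untreated library labelled LAP-Smad2 and 4.67 to 4.98 in 4 copies in the TGFβ-1-treated LAP-Smad3 library. It was 2.13 and 2.22 in 2 copies in the untreated library labelled LAP-Smad3, and 2.09 and 2.17 in 2 copies in the TGFβ-1-treated LAP-Smad2 library, where single peaks of 1811 to 1971 bp spanned both the upstream stretch and the start. Fold enrichment is scaled within each library, so that these values are not compared in size between lists.

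The 18S gene was covered by peaks in the same pair of lists. In RNA45SN3, 97.9% of its 1869 bases lay in peaks of the untreated library labelled LAP-Smad2 and 98.3% in peaks of the TGFβ-1-treated LAP-Smad3 library, beside 0% and 10.8% in the untreated library labelled LAP-Smad3 and the TGFβ-1-treated LAP-Smad2 library. The first part of the gene held a summit in each of the 4 copies in both of the former lists, with fold enrichment of 10.8 to 12.6 and of 6.43 to 7.95. In the 28S gene, the coverage was 63.7% and 67.1% in the former pair and 17.7% and 27.0% in the latter. The lists did not part in this way in the 5′ ETS, with 55.4% and 42.2% in the former pair and 36.7% and 43.8% in the latter. In the 2 kb upstream of the start the coverage was 44.15% and 49.65% in the former pair and 55.5% and 58.15% in the latter. The highest −log10 q values of the TGFβ-1-treated LAP-Smad3 list, 129, 122 and 120, were 28S peaks 9738, 9733 and 9828 bases after the 45S start in RNA45SN3, RNA45SN2 and the copy at RNA18SP5, with fold enrichment of 11.03, 10.45 and 9.95. In RNA45SN1 the same peak had its summit at 9522 bases and a fold enrichment of 6.42. The untreated library labelled LAP-Smad2 covered nearly the same interval, but its summits lay 9285 to 9332 bases after the start, with fold enrichment of 8.13 to 8.68.

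The short 5.8S gene lay wholly inside peaks of 3 lists in RNA45SN3 and to 70.1% inside a peak of the untreated library labelled LAP-Smad3. Over the 4 annotated 5.8S genes, 4, 3, 3 and 4 peaks overlapped one, in the order untreated labelled LAP-Smad2, untreated labelled LAP-Smad3, TGFβ-1-treated LAP-Smad2 and TGFβ-1-treated LAP-Smad3, which is kept for every list of 4 values below. Only in the last list did a summit fall inside an annotated 5.8S gene, in 2 copies, with fold enrichment of 4.43 and 4.68. The 3′ ETS, of 363 bases, held no summit in any list. The intergenic spacer, of 28878 bases in RNA45SN3, held 42, 33, 50 and 73 summits over the copies. Peaks covered 22.8%, 13.3%, 22.1% and 51.8% of it, while the transcribed part was covered to 61.2%, 18.9%, 29.4% and 56.4%. The highest fold enrichment in the spacer was 11.4, 2.80, 3.02 and 6.44, so that in each list but the TGFβ-1-treated LAP-Smad2 list it stayed below the highest value of the transcribed part, which was 16.2, 3.14, 2.88 and 11.03.

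**Figure D1:**
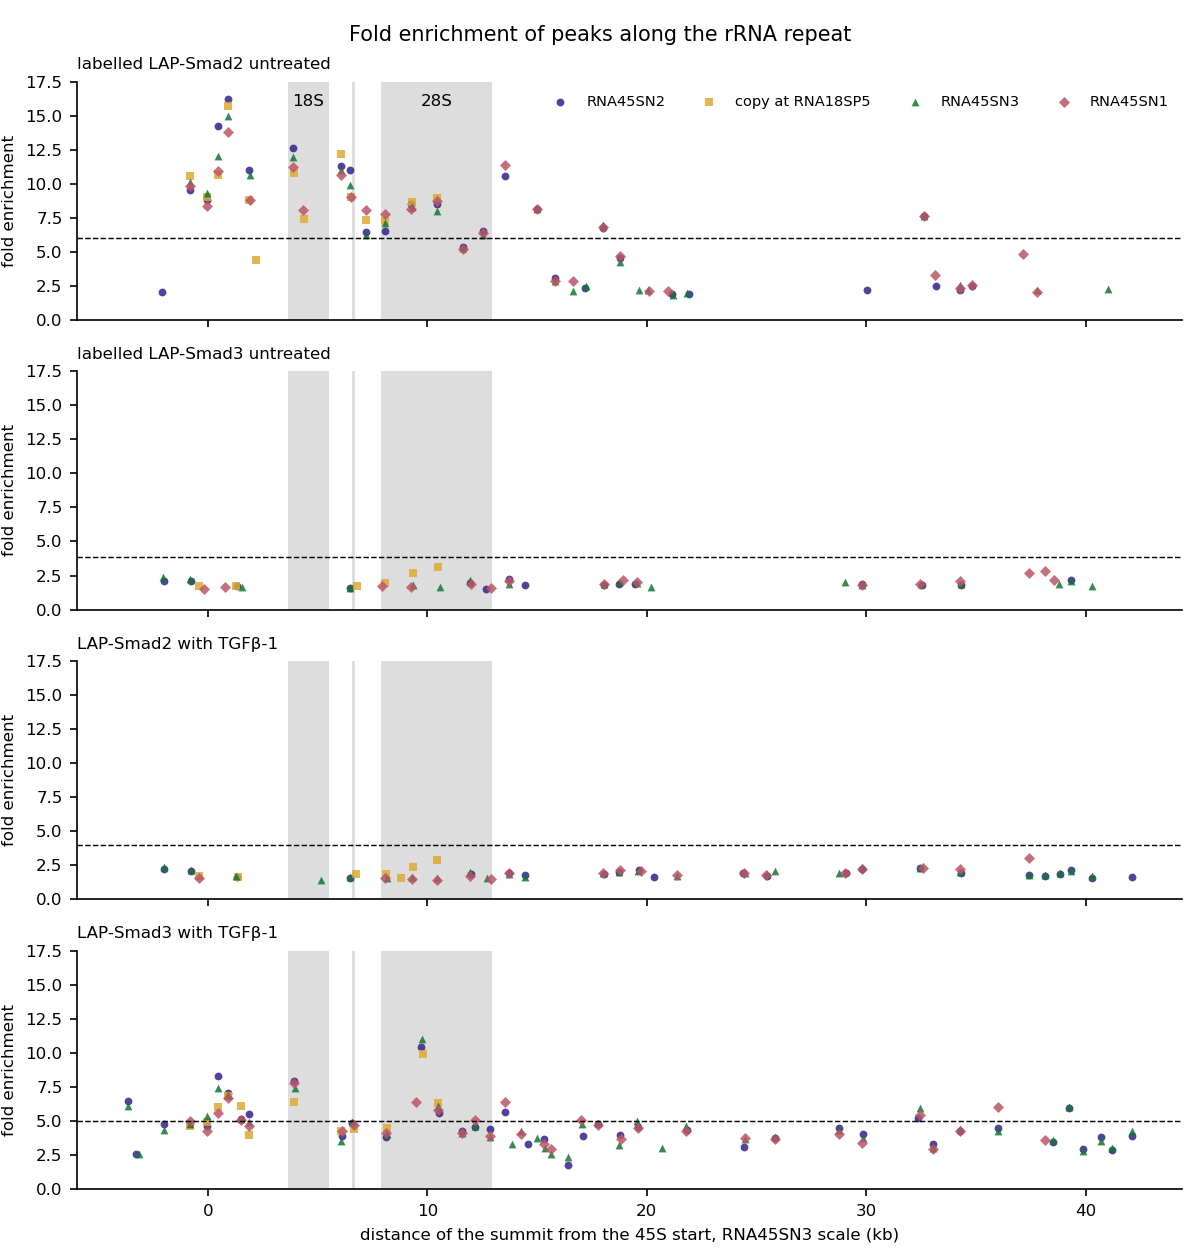
Fold enrichment of every peak in the 4 rRNA repeat copies against the distance of its summit from the 45S start in kb, with 1 panel per list, 1 marker per copy, grey bands for the 18S, 5.8S and 28S genes and a dashed line at the median of the peaks off the short arm in the same list. In the untreated library labelled LAP-Smad2 the 5′ ETS peaks reach 16.2, and in the 2 lists with low values no repeat peak exceeds 3.14.

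**Figure D2:**
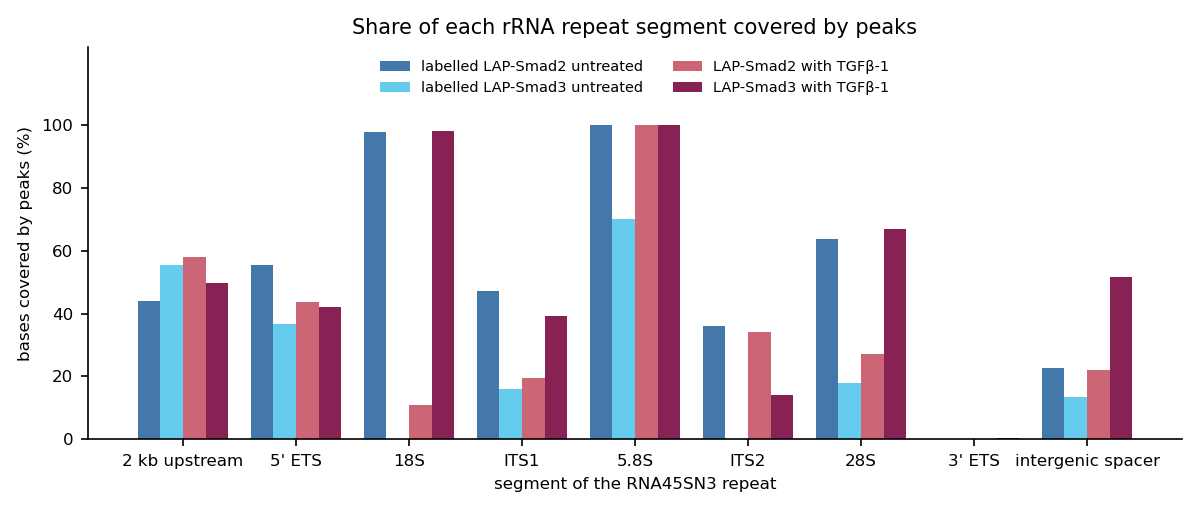
Percent of the bases of each segment of the RNA45SN3 repeat that lie in peaks, with 1 bar per list. The 18S bars stand at 97.9% and 98.3% in 2 lists and at 0% and 10.8% in the other 2.

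Many peaks had a counterpart at the same position in the other copies. The copies are nearly identical, so that a counterpart is not an independent call. With positions carried over to RNA45SN3 by alignment and a tolerance of 200 bp, a peak had a counterpart in every other copy that holds the position for 73 of 98 peaks (74.5%, 95% Wilson interval 65.05 to 82.1), 26 of 54 (48.1%, 35.4 to 61.1), 39 of 73 (53.4%, 42.1 to 64.4) and 105 of 122 (86.1%, 78.8 to 91.1). These intervals, and the Wilson intervals that follow, cover counting error only and do not allow for the dependence between peaks of near-identical copies. The number of peaks per copy was 28, 14, 28 and 29 in the untreated library labelled LAP-Smad2 for RNA45SN2, the copy at RNA18SP5, RNA45SN3 and RNA45SN1. It was 15, 6, 19 and 16 in the untreated library labelled LAP-Smad3, 23, 7, 28 and 18 in the TGFβ-1-treated LAP-Smad2 library, and 41, 12, 44 and 33 in the TGFβ-1-treated LAP-Smad3 library. The copy at RNA18SP5 had the fewest in every list and is also the shortest, with 12775 bases beside 41139 to 46209 in the others.

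Summits were chained into positions on the common scale wherever neighbours lay within 100 bp, so that a position can span more than 100 bp. Summits more than 2 kb before a 45S start were left out of this chaining. Among them were the peaks at chr21:8203731-8204135 before RNA45SN2, where all 4 lists had one, and the counts of shared positions do not hold them. The chaining gave 82 positions, 8 of which held peaks of all 4 lists. Those 8 were 1 position upstream of the 45S start, 1 in ITS1, 2 in the 28S gene and 4 in the intergenic spacer. The untreated library labelled LAP-Smad2 and the TGFβ-1-treated LAP-Smad3 library shared 11 positions that no other list had, and the untreated library labelled LAP-Smad3 and the TGFβ-1-treated LAP-Smad2 library shared 10. The 2 libraries labelled LAP-Smad2 shared 0 such positions, the 2 labelled LAP-Smad3 shared 2, the untreated libraries 1 and the treated libraries 4. These counts leave out positions that a further list also held, and the lists held 36, 32, 33 and 45 positions in all. Both libraries labelled LAP-Smad2, for example, had summits at the 28S position from 9239 to 9360 bases, as did the untreated library labelled LAP-Smad3. The summit distances showed the same pairs as the 11 and 10 positions above. The median distance from a repeat summit of the untreated library labelled LAP-Smad2 to the nearest summit of the TGFβ-1-treated LAP-Smad3 library was 71 bp, beside 411 bp to the TGFβ-1-treated LAP-Smad2 library. From the untreated library labelled LAP-Smad3 it was 16.5 bp to the TGFβ-1-treated LAP-Smad2 library and 126 bp to the TGFβ-1-treated LAP-Smad3 library. The lists differ in length, and a list with more summits lies nearer to any position.

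Over the whole short arm, 177, 103, 208 and 398 peaks were called, which was 1.57%, 2.93%, 0.775% and 0.636% of the respective list and 63.4%, 78.0%, 41.3% and 34.5% of the chromosome 21 peaks. Per megabase of known sequence this was 27.5, 16.0, 32.3 and 61.8 peaks, beside 3.03, 0.862, 8.80 and 22.4 on the long arm. The 4 repeat copies, with 2.27% of the known short arm sequence, held 99, 56, 76 and 130 of the peaks, and 78, 47, 132 and 268 lay outside them. Within 10 kb of an annotated 5.8S gene lay 69 (39.0%), 29 (28.2%), 34 (16.3%) and 84 (21.1%) of the peaks. The summit was in a lncRNA gene for 78, 44, 72 and 160 peaks, many of them in ENSG00000280441 (chr21:8380643-8454792) and ENSG00000278996 (chr21:8197620-8227646), which span rRNA repeats. Those genes held 51, 29, 39 and 68 peaks and 22, 11, 11 and 27 peaks. Apart from the rRNA genes, most of the other genes with the most peaks nearby were short genes inside the repeat, such as the miRNA genes MIR6724-1 (21 peaks within 3 kb over all lists), MIR6724-2 (21) and MIR6724-3 (20), just upstream of the 45S start.

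Repeat peaks were wide, and their fold enrichment held different places within the 4 lists. The median width was 441, 356, 345 and 468.5 bp in the repeats, beside 262, 250, 250 and 239 bp in the peaks of the same list off the short arm. The median fold enrichment in the repeats was 7.62 (95% interval of the median 6.49 to 8.26), 1.87 (1.83 to 1.92), 1.87 (1.76 to 1.94) and 4.42 (4.26 to 4.66), and off the short arm it was 6.02, 3.88, 3.98 and 4.97. The repeat median stood at percentile 77.0, 2.08, 0.380 and 36.3 of its own list. Outside the repeats the short arm medians were 6.03, 4.04, 3.56 and 5.06, nearer to the rest of each list. In the TGFβ-1-treated LAP-Smad3 list, 23 of the 268 peaks outside the repeats have 1 and the same fold value, 4.96578. Other values, such as 4.41402 and 5.51753, also recur there. The fold enrichment of many peaks of this list thus falls on a few set values, and small differences between them can be single steps.

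Peaks with a p-value below 1e-20 were frequent on the short arm in all lists. They numbered 98 (55.4%), beside 9.71% of all peaks in the untreated library labelled LAP-Smad2, 33 (32.0%) beside 13.7% in the untreated library labelled LAP-Smad3, 56 (26.9%) beside 2.16% in the TGFβ-1-treated LAP-Smad2 library, and 139 (34.9%) beside 0.966% in the TGFβ-1-treated LAP-Smad3 library. In the repeats alone they were 71 of 99, 16 of 56, 34 of 76 and 124 of 130. Among the 20 peaks with the highest −log10 q, 20, 2, 4 and 20 were on the short arm, and among the top 100 they were 47, 6, 6 and 74.

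**Figure D3:**
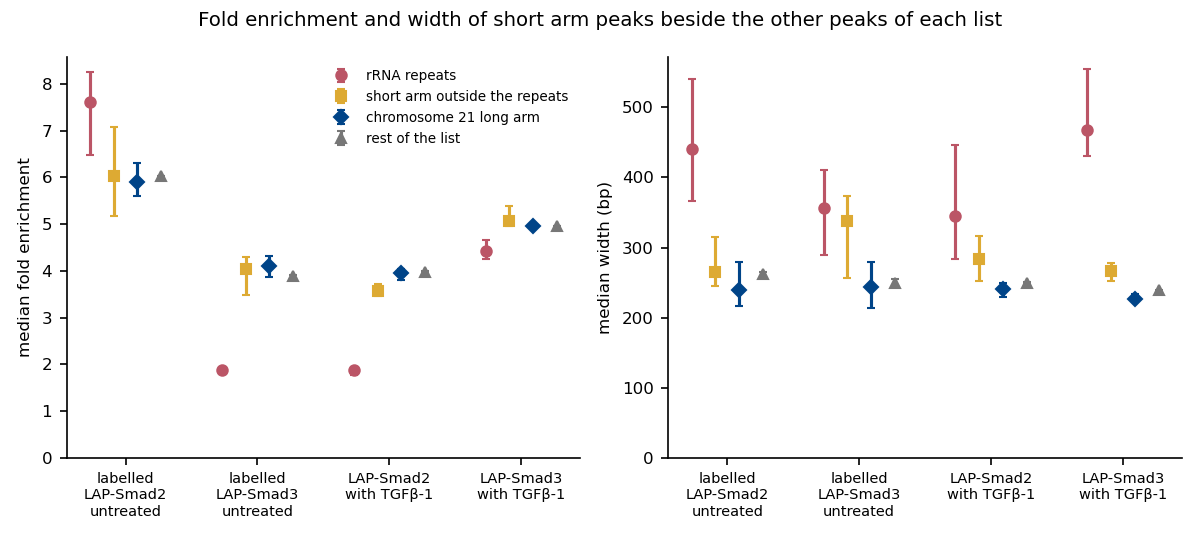
Median fold enrichment (left) and median width in bp (right) of peaks in the rRNA repeats, in the rest of the short arm, on the chromosome 21 long arm and in the rest of the list, with 1 group of markers per list and bars for the 95% interval of the median. Repeat peaks are the widest in every list, and their median fold enrichment is 1.87 in 2 lists, below every other marker of those lists.

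Overlap between lists by at least 1 bp was more frequent among short arm peaks than over the whole list in every ordered pair. In the untreated library labelled LAP-Smad2, 74 of 177 peaks (41.8%, beside 6.12% of all peaks) overlapped the untreated library labelled LAP-Smad3. There 92 (52.0%, beside 33.3%) overlapped the TGFβ-1-treated LAP-Smad2 library and 130 (73.4%, beside 39.9%) the TGFβ-1-treated LAP-Smad3 library. All 3 other lists were met by 59 (33.3%, beside 2.56%) and none by 28 (15.8%, beside 43.4%).

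In the untreated library labelled LAP-Smad3, 65 of 103 peaks (63.1%, beside 19.7%) overlapped the untreated library labelled LAP-Smad2. There 94 (91.3%, beside 71.3%) overlapped the TGFβ-1-treated LAP-Smad2 library and 68 (66.02%, beside 19.4%) the TGFβ-1-treated LAP-Smad3 library. All 3 other lists were met by 51 (49.5%, beside 8.26%) and none by 7 (6.80%, beside 25%). This list is the shortest, with 3511 peaks.

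In the TGFβ-1-treated LAP-Smad2 library, 78 of 208 peaks (37.5%, beside 14.1%) overlapped the untreated library labelled LAP-Smad2. There 90 (43.3%, beside 9.25%) overlapped the untreated library labelled LAP-Smad3 and 116 (55.8%, beside 24.5%) the TGFβ-1-treated LAP-Smad3 library. All 3 other lists were met by 49 (23.6%, beside 1.14%) and none by 62 (29.8%, beside 63.1%).

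In the TGFβ-1-treated LAP-Smad3 library, 129 of 398 peaks (32.4%, beside 7.27%) overlapped the untreated library labelled LAP-Smad2. There 78 (19.6%, beside 1.1%) overlapped the untreated library labelled LAP-Smad3 and 130 (32.7%, beside 10.6%) the TGFβ-1-treated LAP-Smad2 library. All 3 other lists were met by 65 (16.3%, beside 0.5%) and none by 218 (54.8%, beside 85.1%). This list is the longest, with 62551 peaks.

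The overlap was concentrated in the repeats. All 56 repeat peaks of the untreated library labelled LAP-Smad3 overlapped both treated lists, and 75 of 76 repeat peaks of the TGFβ-1-treated LAP-Smad2 library and 92 of 99 of the untreated library labelled LAP-Smad2 overlapped the TGFβ-1-treated LAP-Smad3 list. Peaks of that list covered 51.6% to 53.7% of each repeat copy, and the wide peaks of the repeats meet more easily than narrow ones. Outside the repeats, the share overlapping no other list was 29.5%, 14.9%, 46.2% and 76.1%. When the peaks of all lists were merged, the repeats gave 106 regions, of which 38 held all 4 lists and 20 only 1, and the rest of the short arm gave 384 regions, of which 7 held all 4 lists and 295 only 1.

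**Figure D4:**
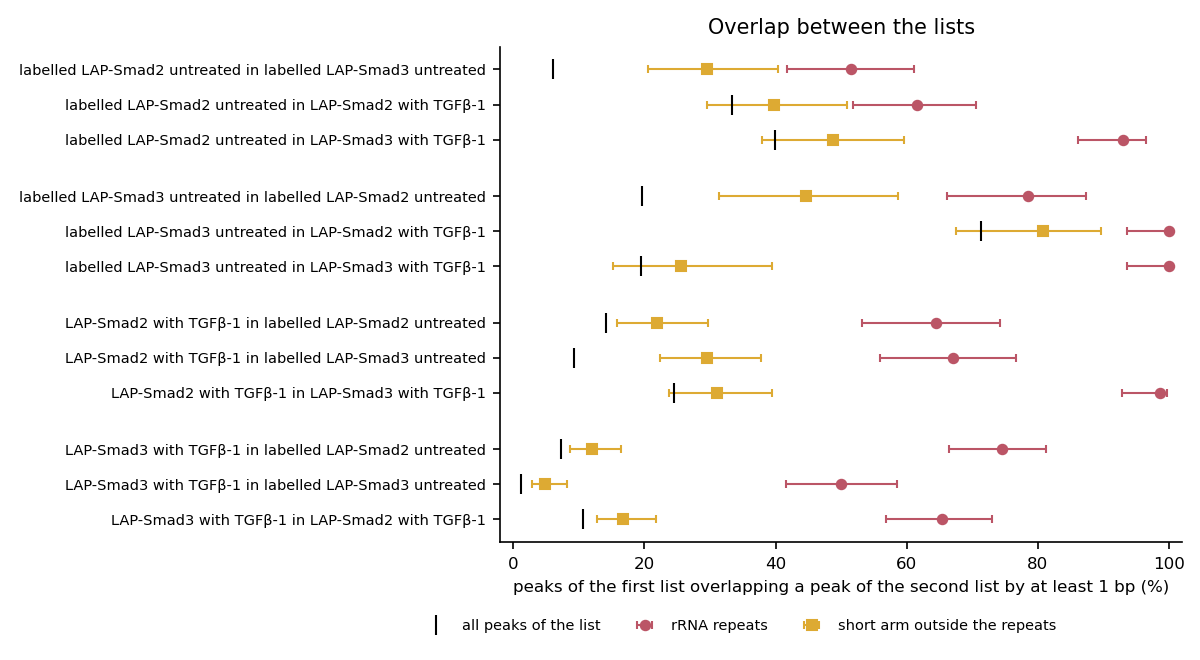
Percent of the peaks of the first list that overlap a peak of the second list by at least 1 bp, for peaks in the rRNA repeats (circles) and in the rest of the short arm (squares), with 95% Wilson intervals, and for all peaks of the first list (vertical ticks). The repeat markers lie to the right of the squares and the ticks in all 12 ordered pairs.

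The 7 regions outside the repeats with peaks of all 4 lists lay at 3 places. The first is a fragment of the 45S precursor at chr21:8986605-8988754, which matched bases 2091 to 4209 after the 45S start, the end of the 5′ ETS and the beginning of 18S, with 97.7% identity, and which holds the miRNA gene MIR3648-2. It gave 2 of the 7 regions. At the 18S end of the fragment the peaks had fold enrichment of 14.4, 6.35, 6.27 and 9.10 and −log10 q of 141, 65.7, 79.8 and 105, with summits at 3883 to 3898 on the 45S scale. In the untreated library labelled LAP-Smad3 and the TGFβ-1-treated LAP-Smad2 library, these values were higher than at any peak of the 4 repeat copies themselves, where fold enrichment reached 3.14 and 3.02.

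The second place is the transcribed pseudogene LINC01667 (chr21:9781910-9838011), with 4 of the 7 regions. It held 24, 4, 6 and 27 peaks, with a highest fold enrichment of 15.3, 4.07, 3.97 and 13.2. The windows of its peaks had up to 57 near-identical copies elsewhere in hg38. The third place is the satellite peak shown above, at chr21:10692565-10693205, between genes. Its fold enrichment was 3.999, 10.8, 12.4 and 1.82, with −log10 q of 84.4, 143, 170 and 12.6, and the last is the lowest value of fold enrichment outside the repeats in the TGFβ-1-treated LAP-Smad3 list.

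Satellite sequence was unevenly represented among the lists. Outside the repeats, a 200 bp window with at least 10 matches to CATTC on either strand was found at 19 of 78 peaks (24.4%, interval 16.2 to 34.9), 21 of 47 (44.7%, 31.4 to 58.8), 32 of 132 (24.2%, 17.7 to 32.2) and 1 of 268 (0.373%, 0.0659 to 2.08). The share over the whole list was 4.08%, 10.9%, 1.89% and 0.0831%. In the repeats no window reached this number. The satellite peaks had a median fold enrichment of 2.99, 4.12 and 3.69 in the first 3 lists, with highest values of 4.20, 10.8 and 12.4. Their mean GC content was 39.3%, 40.9% and 41.4%, beside 63.3%, 49.1% and 54.1% in the other windows outside the repeats of the same lists. Beyond 11 Mb, 0, 6, 16 and 0 peaks were called.

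**Figure D5:**
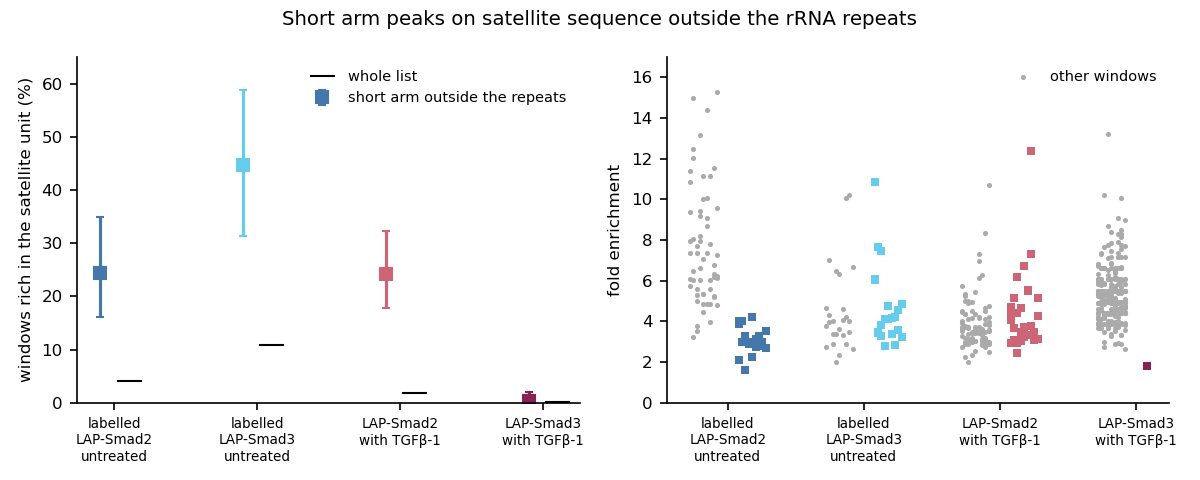
Left, percent of 200 bp windows outside the rRNA repeats with at least 10 matches to the satellite unit CATTC, with 95% Wilson intervals, beside the share over the whole list (black line). Right, fold enrichment of these windows (coloured squares) and of the other short arm windows outside the repeats (grey points); the TGFβ-1-treated LAP-Smad3 list has 1 such window, at 1.82.

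The lncRNA gene ENSG00000286033 (chr21:8762386-8836565) held 2, 2, 7 and 12 peaks, with a highest fold enrichment of 6.46, 7.04, 8.37 and 7.73. The lncRNA TEKT4P2 (chr21:9068325-9129773) held 0, 1, 3 and 20. TPTE (chr21:10521553-10606140), which encodes a phosphatase-like protein made in testis and is the only protein-coding gene GENCODE annotates on this stretch, held 1, 0, 2 and 2 peaks, with fold enrichment of up to 4.85, 4.75 and 4.96 where it had any. Among the 19 genes that GENCODE types as artifacts, 3, 0, 3 and 16 peaks overlapped one. All of these peaks had a near-identical copy on the long arm, and 2, 2 and 13 of them had a peak of the same list at a copy off the short arm. One example is a peak of the TGFβ-1-treated LAP-Smad3 list at chr21:6450558-6450762 with fold enrichment of 4.41 and its copy in CBS, the cystathionine beta-synthase gene, at chr21:43058883-43059082, where the same list had a peak with 4.97. Not all of these peaks have a single copy. Those of this list at chr21:5032272-5032558, chr21:6488352-6488603 and chr21:6525011-6525360 had up to 492, 965 and 3612 copies elsewhere. A peak at any copy off the short arm counted, so that the 13 are not all pairs with 1 long arm copy.

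Near-identical copies were the rule for short arm peaks. A second place in hg38 with at least 90% of the 200 bases identical was found for 161 (91.0%, interval 85.8 to 94.4), 89 (86.4%, 78.5 to 91.7), 182 (87.5%, 82.3 to 91.3) and 393 (98.7%, 97.1 to 99.5) of the windows. On the long arm of the same chromosome the shares were 77.5%, 17.2%, 40.9% and 50.7%. All repeat windows had a copy. Of the windows with a copy, 89.4%, 75.3%, 80.2% and 85.8% had a peak of the same list at one of the copies as well. A peak at any copy counted, and the number of copies differed widely between windows. The same share for peaks off the short arm is not given here, so that these values are not read as particular to the short arm. Of 23 RefSeq rRNA pseudogene loci on other chromosomes, 3, 2, 3 and 8 had a peak within 1 kb.

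The mean GC content of the short arm windows was 60.9%, 57.0%, 56.4% and 60.4%, with an SD across peaks of 15.2, 14.6, 14.5 and 8.27 percentage points, beside 53.1%, 56.8%, 63.8% and 58.5% over the whole list. CAGAC was present on either strand in 20.9%, 21.4%, 27.9% and 32.4% of the short arm windows, beside 25.3%, 33.7%, 34.96% and 34.5% over the list. GGCGC was present in 45.8%, 42.7%, 34.6% and 30.7%, beside 51.2%, 36.3%, 56.8% and 43.2%. Within the repeats its share was 55.6%, 66.1%, 55.3% and 50%, and outside them 33.3%, 14.9%, 22.7% and 21.3%. The E-box CAGCTG was present in 4.52%, 6.80%, 9.62% and 15.1% of the short arm windows, beside 8.33%, 11.6%, 15.7% and 14.1%.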

How the data were processed

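Anti-GFP ChIP-seq was performed once in each of 4 conditions. Reads were aligned to hg38 with Bowtie2 and MACS2 called the peaks, with 0.05 as the highest q-value kept; their versions are not given in the sources used here. The authors deposited 1 list per library, in which the fold enrichment is the ratio of the pileup at the summit to the local background. Significance was deposited by the authors as −log10 p and −log10 q. How reads with several alignments were treated is not given in the sources used here, and it affects which copy of a repeat holds a peak.

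From these lists, peaks of chromosome 21 with an end below 13000000 were taken. The rRNA repeat copies were set from RefSeq and the 5.8S genes of GENCODE release 44 and aligned to RNA45SN3 with edlib 1.3.9.post1. Windows of 200 bp on each interval's centre were searched against hg38 without alternative sequences with blastn 2.17.0, and at most 200 alignments per sequence were listed. Shares, medians and sequence counts came from pandas 2.3.3, numpy 2.4.6, scipy 1.17.1 and pysam 0.24.0 under Python 3.11.15. Peaks sharing 1 bp or more counted as overlapping. Intervals are at the 95% level, by Wilson's method for shares and by binomial order statistics for medians, and cover the peaks of 1 library. No test between conditions was run. Samples were grouped by their labels.

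The regions, gene lists and motifs were chosen with earlier results of these data known. Genes named are the annotated rRNA genes and genes with peaks of at least 2 lists within 3 kb, at most 20 by number of peaks. The leading 3 peaks of each list, regions with peaks of all 4 lists and repeat positions shared between copies were also named. CBS, TPTE and the count of CATTC were chosen after their values were seen. Alternatives were a stricter q-value, other boundaries, distances, overlaps, windows and identities, and equally long lists. The functions were tested on simulated data, where 8 of 8 checks passed. The sequence of 1 further peak outside the repeats is not reported here.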

Additional observations from a re-analysis of the deposited data

How the results depend on the processing

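The values were recomputed under 120 single changes of setting; 70 stayed within and 50 moved beyond the limits set, which were a 1.5-fold change for numbers of peaks, 1 SD across peaks for GC content and the 95% interval of the value for the rest. No change of setting made a comparison between conditions possible. A q-value of 0.01 (32 values), windows on the summit and 95% identity moved none beyond them. With the pericentromeric peaks left out, the numbers of peaks fell to 165, 85, 169 and 395, and the median fold enrichment of the TGFβ-1-treated LAP-Smad2 library became 2.89. For peaks within 10 kb of an rRNA gene alone, the median width became 557, 350.5 and 438 bp in the untreated library labelled LAP-Smad2 and the treated LAP-Smad2 and LAP-Smad3 libraries, the median fold enrichment 8.73, 1.82, 1.69 and 4.64 in the order of the report, and the mean GC content 66.6%, 70.3%, 71.1% and 64.8%. The share near an rRNA gene was 23.7%, 13.6%, 8.65% and 8.79% at 5 kb and 57.6%, 54.4%, 38.5% and 34.7% at 45 kb. Overlaps depended on their definition. With a mutual overlap of 50%, the shares were 24.3%, 26.0% and 42.4% for the untreated library labelled LAP-Smad2, 41.7%, 76.7% and 38.8% for the untreated library labelled LAP-Smad3, 22.1% and 30.8% for the treated LAP-Smad2 library with the untreated library labelled LAP-Smad2 and the treated LAP-Smad3 library, and 18.8%, 10.1% and 16.1% for the treated LAP-Smad3 library. With summits within 100 bp they were 22.03%, 28.2% and 42.9%, then 37.9%, 69.9% and 33.0%, then 24.0%, 34.6% and 27.4%, then 19.1%, 8.54% and 14.3%. With every list held to the length of the shortest, 3511 peaks, the untreated pair shared 52.5% of the short arm peaks of the library labelled LAP-Smad2, 78.6% of those of the library labelled LAP-Smad3 overlapped the treated LAP-Smad2 library, the treated LAP-Smad2 library had 48.1%, 70.4% and 69.4%, and the treated LAP-Smad3 library had 59.2%, 43.2% and 50.3%. With a tolerance of 100 bp, added after seeing the data, repeat peaks with a counterpart in every copy were 33.3% in the untreated library labelled LAP-Smad3, and with 400 bp 97.5% in the treated LAP-Smad3 library. No paired analysis was possible because each condition has 1 library and no value comes from a test. Depth is unknown, copies share reads, and in very frequent satellites the number of copies listed is a lower limit.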
